A study of Mus musculus with 12 samples.

Results

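The genes of cholesterol and fatty acid synthesis were followed in mouse basophils at 2 stages of maturation and under 2 growth cytokines. The set was a list of 33 gene symbols, 24 of a sterol arm and 9 of a fatty acid arm, and a gene was kept when its mean over the 12 libraries reached 1 CPM, the count scaled to a common library size. That left 32 of the 31301 symbols in the count table, 24 sterol and 8 fatty acid genes. Scd1, at a mean of 0.893 CPM, lay just under the limit, and Tm7sf2 (2.14 CPM) and Dhcr7 (4.26 CPM) just above it. The members lay on 15 chromosomes, with Fdps and Pmvk 353 kb apart on chromosome 3, Scd2 and Scd1 87.6 kb apart on chromosome 19 and Fads2 and Fads1 81.1 kb apart on the same chromosome (GRCm38).

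Bone marrow cells of wild-type C57BL/6J mice were grown for 7 days with interleukin-3 (IL-3, 0.3 ng/mL) or with thymic stromal lymphopoietin (TSLP, 1 µg/mL in the treatment protocol, with another unit elsewhere in the labels). The resulting bone marrow-derived basophils (BMBAs) were sorted into FcεRIαhi CD49blo cells, here immature and in the study pre-basophils, and FcεRIαlo CD49bhi cells, here mature. Each of the 4 groups, named by cytokine and stage, held 3 libraries of polyadenylated RNA. No group carried an altered gene, and these 12 libraries include no culture without a cytokine. The study describes the libraries of a group as separate cultures. Neither it nor the labels say whether these came from separate mice, so the p-values measure the spread between cultures.

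Cells make cholesterol from acetyl-CoA by way of mevalonate, isoprenyl diphosphates, squalene and lanosterol, and make long-chain fatty acids from the same precursor by carboxylation, chain extension and desaturation. Both routes are under the sterol regulatory element-binding proteins, transcription factors held in the endoplasmic reticulum by the escort protein SCAP and the anchor proteins INSIG when sterol is plentiful, and carried to the Golgi apparatus and cut free when it is scarce. Sterol excess also yields oxysterols, which bind the liver X receptors (LXR) that turn on efflux genes.

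Promoter sequence is shown for 4 members that stand for the start, the middle and the fatty acid side of the pathway. They were chosen after the values had been seen, and whether a window overlaps another annotated gene is not shown here. Each line is the 250 bases before a RefSeq transcription start, 5′ to 3′ on the strand of the gene, in GRCm38.p6. The windows are chr13:119690101-119690350 (+) for Hmgcs1, chr5:114444019-114444268 (+) for Mvk, chr8:122443423-122443672 (−) for Mvd and chr11:120824548-120824797 (−) for Fasn. Capitals mark matches on either strand to TCACNCCAC (the core of the sterol regulatory element, SRE), CACGTG (E-box) or CCAAT (the box bound by NF-Y, which reads ATTGG where it lies on the other strand).
Hmgcs1: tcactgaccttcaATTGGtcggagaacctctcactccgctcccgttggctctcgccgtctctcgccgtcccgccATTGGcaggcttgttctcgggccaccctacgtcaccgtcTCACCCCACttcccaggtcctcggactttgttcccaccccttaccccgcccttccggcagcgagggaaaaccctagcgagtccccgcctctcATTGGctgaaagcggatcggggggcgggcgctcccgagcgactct
Mvk: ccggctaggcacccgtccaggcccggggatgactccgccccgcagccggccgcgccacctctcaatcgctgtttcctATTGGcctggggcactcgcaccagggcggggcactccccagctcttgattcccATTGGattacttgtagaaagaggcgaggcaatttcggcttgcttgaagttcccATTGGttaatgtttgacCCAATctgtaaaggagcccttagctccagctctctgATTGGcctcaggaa
Mvd: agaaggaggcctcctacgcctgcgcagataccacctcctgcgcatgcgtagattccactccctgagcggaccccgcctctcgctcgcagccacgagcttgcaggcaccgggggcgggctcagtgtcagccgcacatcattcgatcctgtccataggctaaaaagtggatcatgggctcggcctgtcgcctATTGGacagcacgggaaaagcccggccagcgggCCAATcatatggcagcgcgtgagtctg
Fasn: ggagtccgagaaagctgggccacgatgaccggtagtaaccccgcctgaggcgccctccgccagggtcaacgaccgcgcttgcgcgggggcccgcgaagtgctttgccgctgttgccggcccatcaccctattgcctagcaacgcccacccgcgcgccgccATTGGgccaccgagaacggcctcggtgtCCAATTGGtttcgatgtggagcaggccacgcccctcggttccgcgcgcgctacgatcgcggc
The Hmgcs1 window held the SRE core on the forward strand 137 bases before the start, with CCAAT boxes 237, 176 and 45 bases before it. In Mvk there were 5 CCAAT boxes, in Mvd 2, at 60 and 27 bases before the start, and in Fasn 3, at 90, 62 and 59 bases, the last pair overlapping. Windows were at hand for 26 members. Some genes have more than 1 window, and a gene was counted when any of them matched. CCAAT was present in 18 of 20 sterol genes (90%) and 2 of 6 fatty acid genes, beside 37.5% of 27025 genes with a window. CACGTG was present in 5 of 20 sterol genes and 1 of 6 fatty acid genes, beside 6.86% of all genes, and the SRE core in Hmgcs1 alone, beside 1.22% of all genes. By window, CCAAT was in 67.9% of 28 sterol windows, beside 33.8% of all 32851, and CACGTG in 17.9%, beside 6.02%. These are matches of letters, with no measurement of binding, and no match says only that these letters are not in this window. Fdps, Fdft1, Sqle, Stard4, Scd1, Scd2 and Fads1 had no entry in the sequence table.

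Library totals ran from 1720065 to 3685285 counts, and 10861 genes passed a filter of about 10 counts in 3 libraries. That filter can be met through a single high group, and of the 32 members 31 passed it (23 sterol and 8 fatty acid genes); Tm7sf2 was not tested. Of the genes of the sort markers, Itga2 (CD49b) averaged 27.2 CPM in immature and 246 in mature cells with IL-3, and 86.0 and 167 with TSLP. Fcer1a (FcεRIα) averaged 1590 and 1020 with IL-3 and differed little with TSLP, at 1330 and 1260. Mcpt8, a basophil protease, stood between 2890 and 16100 CPM in the 4 groups, and of the mast cell markers Cpa3 carried nearly all counts, with Mrgprb2 at 0 throughout. The library TSLP mature 1 stood apart, since its neutrophil markers summed to 702 CPM, where replicates 2 and 3 of its group had 37.3 and 29.4, and its B lineage markers to 136 CPM, where those had 14.7 and 17.5. The members together took 0.217 to 0.266% of the counts in IL-3 immature, 0.152 to 0.171% in TSLP immature, 0.1001 to 0.110% in TSLP mature and 0.0769 to 0.0883% in IL-3 mature libraries. These are shares of all counts, and ribosomal RNA genes took unequal parts of them. In the same order of groups those parts were 14.7 to 25.0%, 35.0 to 40.1%, 17.3 to 34.7% and 20.2 to 24.5%. In bulk RNA of this kind, a change in the make-up of a sort and a change of RNA per cell cannot be told apart.

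Both arms were high in immature and low in mature basophils, and several of these genes were higher in mature cells grown with TSLP than in those grown with IL-3. As the median over the tested sterol genes of log2 level minus the gene's own mean, the 12 libraries fell into 4 separate ranges: 0.79 to 1.03 in IL-3 immature, 0.63 to 0.66 in TSLP immature, -0.57 to -0.37 in TSLP mature and -1.20 to -0.98 in IL-3 mature. The fatty acid arm gave the same order, with 0.68 to 0.92, 0.31 to 0.51, -0.47 to -0.17 and -0.78 to -0.64.

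**Figure D1:**
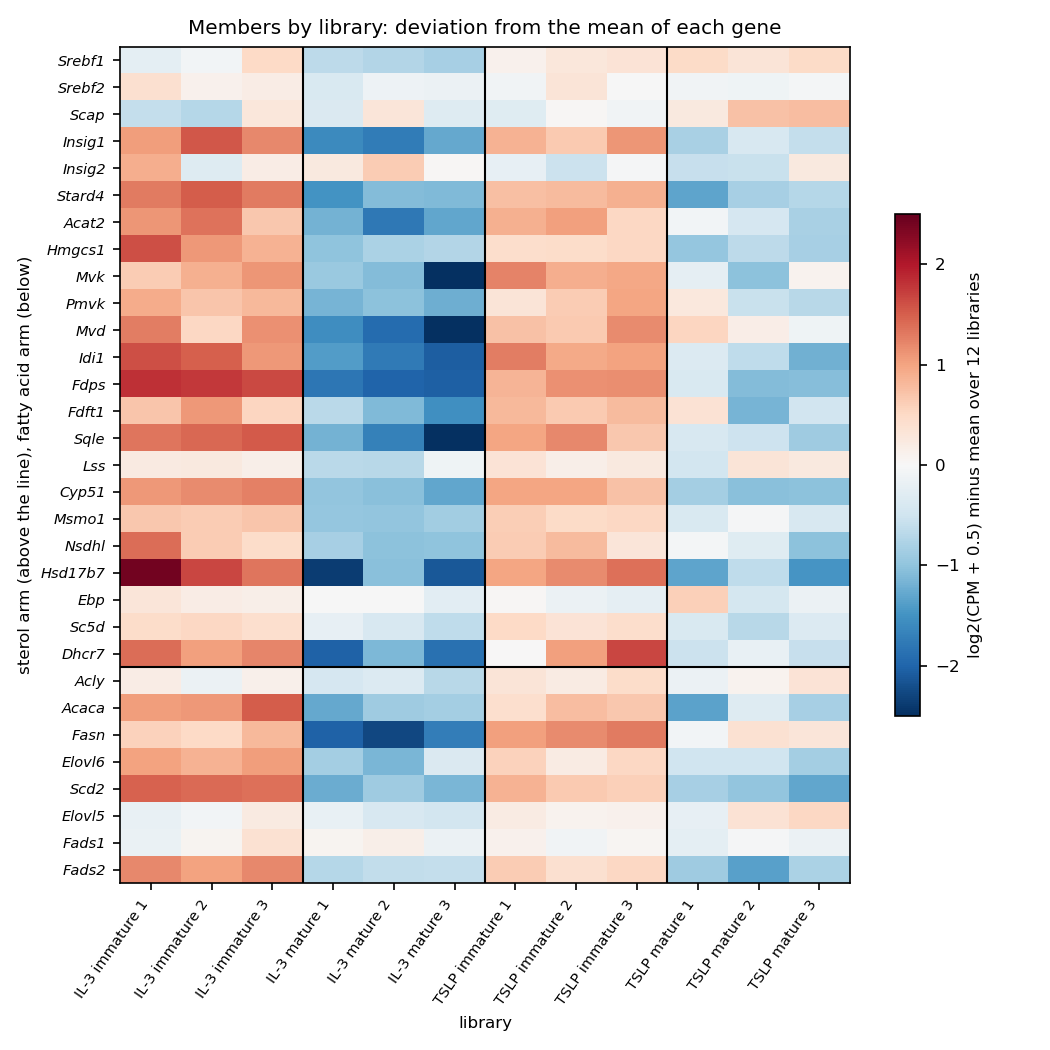
Heat map of the tested members (rows, by arm) in the 12 libraries (columns, by group), coloured by log2(CPM + 0.5) minus the gene's mean over the libraries, with colours clipped at ±2.5. Most sterol and fatty acid genes are above their own mean in the 6 immature libraries and below it in the 6 mature libraries, while genes such as Ebp, Insig2, Scap, Srebf1, Lss, Elovl5 and Fads1 show no such split.

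The first question was which synthesis genes separated immature from mature basophils of the same culture. In the IL-3 culture 20 of 23 tested sterol genes and 6 of 8 fatty acid genes were higher in immature cells and none was lower (edgeR quasi-likelihood test, Benjamini-Hochberg adjusted over all 10861 genes; 46.2% of all genes passed, 22.1% higher and 24.1% lower). Their median log2 differences were 2.08 and 1.80, beside -0.06 over all genes. In the TSLP culture 16 of 23 sterol genes and 5 of 8 fatty acid genes were higher and none was lower (25.2% of all genes passed, 12.2% higher and 12.9% lower), with medians of 1.07 and 1.02 beside -0.03. Hsd17b7, Fdps and Dhcr7 had the largest log2 differences in the IL-3 culture, and Hsd17b7, Cyp51 and Fdps in the TSLP culture. Ebp, Insig2, Scap, Elovl5 and Fads1 passed the test in neither culture. At an unadjusted p under 0.05 no member was lower with IL-3 and 1, Scap, with TSLP, and by DESeq2 0 were lower in either culture. In each of these calls the 3 immature libraries lay wholly above the 3 mature ones, as did 27.8% of all genes in the IL-3 and 17.9% in the TSLP culture (57.8 and 38.3% without overlap in either direction). Without TSLP mature 1 the counts were 21 and 7 in the IL-3 and 18 and 5 in the TSLP culture.

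**Figure D2:**
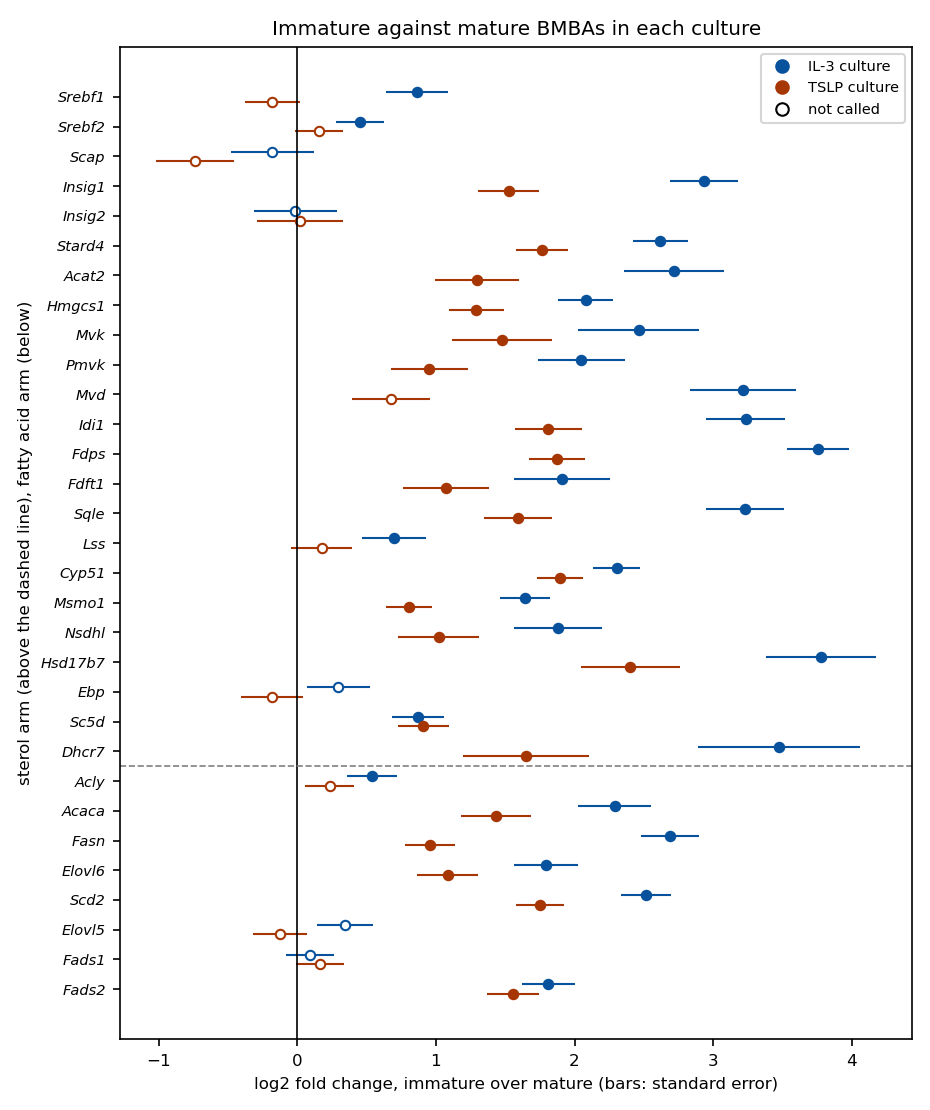
Log2 fold change of immature against mature cells (horizontal axis) for each tested member (vertical axis) in the IL-3 and the TSLP culture, with points for the estimate, bars for ± 1 SE and open points for genes that did not pass an adjusted p of 0.05. The IL-3 points of most sterol genes lie to the right of the TSLP points of the same gene.

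Markers of other cells and of division moved with the stage. The 17 listed cell cycle genes, such as Mki67 and Top2a, summed with IL-3 to 2665 to 2706 CPM in immature and 138 to 151 in mature cells, and with TSLP to 1868 to 1958 and 307 to 349, and all 17 were higher in immature cells of both cultures. The 7 monocyte or macrophage markers summed to 21.4 to 48.8 and 247 to 351 CPM in IL-3 immature and mature libraries, with 4 of 7 lower in immature cells, and to 99.4 to 129.5 and 374 to 661 CPM in TSLP libraries, with 7 of 7 lower. The 8 neutrophil markers summed to 41.2 to 81.9 and 197 to 289 CPM in the IL-3 culture, with 2 of 7 tested lower in immature cells. In the TSLP culture they summed to 11.2 to 39.2 and 29.4 to 702, with 7 of 7 lower. The 702 CPM came from TSLP mature 1 alone. TSLP mature 2 and 3, with 37.3 and 29.4 CPM, lay within the range of the TSLP immature libraries. Mast cell markers, nearly all Cpa3, summed to 2749 to 3218 and 1308 to 1844 CPM with IL-3 and 1594 to 1678 and 654 to 859 with TSLP. Cpa3, the 1 tested gene, was higher in immature cells of both cultures. The part of these markers in the differences of the synthesis genes was not tested.

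The regulators of the pathway moved unequally. Insig1, an anchor protein of the sterol sensor and itself a target of the pathway, had 33.3, 47.5 and 37.2 CPM in the 3 IL-3 immature libraries, 29.3, 25.3 and 34.9 in the TSLP immature, 8.87, 11.9 and 10.4 in the TSLP mature and 4.96, 4.35 and 6.29 in the IL-3 mature libraries. The immature libraries of both cultures exceeded all mature libraries, and the TSLP mature libraries exceeded the IL-3 mature ones. For Insig1 the log2 difference of immature against mature, given here and for all genes ± SE, was 2.93 ± 0.25 (adjusted p = 1.09e-07) with IL-3 and 1.52 ± 0.22 (adjusted p = 9.12e-05) with TSLP. Stard4, a sterol carrier of the cytosol, had 114, 131 and 113 CPM in the 3 IL-3 immature libraries, 77.5, 79.8 and 85.1 in the TSLP immature, 18.0, 25.7 and 27.6 in the TSLP mature and 15.9, 21.4 and 21.1 in the IL-3 mature libraries. Its 2 mature groups overlapped and its IL-3 immature libraries were the highest. Stard4 differed between stages by log2 2.62 ± 0.20 (adjusted p = 2.96e-08) and 1.77 ± 0.19 (adjusted p = 4.63e-06). Srebf1, which encodes SREBP-1, had 18.4, 21.1 and 31.3 CPM in the 3 IL-3 immature libraries, 23.6, 26.9 and 28.1 in the TSLP immature, 30.6, 27.7 and 30.6 in the TSLP mature and 13.8, 13.1 and 12.1 in the IL-3 mature libraries. Here the 3 IL-3 mature libraries were the low ones and the other groups overlapped. Srebf1 was higher in immature cells with IL-3, by log2 0.86 ± 0.22 (adjusted p = 0.00452), and gave -0.18 ± 0.20 (adjusted p = 0.556) with TSLP. Srebf2, which encodes SREBP-2, had 459, 376 and 393 CPM in the 3 IL-3 immature libraries, 325, 434 and 343 in the TSLP immature, 329, 323 and 337 in the TSLP mature and 266, 319 and 314 in the IL-3 mature libraries. The IL-3 immature libraries lay above the IL-3 mature ones, and the TSLP groups overlapped. Srebf2 gave log2 0.45 ± 0.17 (adjusted p = 0.041) and 0.16 ± 0.17 (adjusted p = 0.548), and the first call was lost without IL-3 immature 1, IL-3 mature 1, IL-3 mature 2 or IL-3 mature 3 (adjusted p 0.0517 to 0.151). Insig2, the second anchor gene, ranged over the 12 libraries from 15.1 to 43.0 CPM and Scap, the escort gene, from 8.82 to 25.7, and neither passed the test between stages.

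The enzymes from acetyl-CoA to farnesyl diphosphate were higher in immature cells of both cultures, save Mvd with TSLP. Hmgcs1, the synthase that makes HMG-CoA, had 204, 141 and 122 CPM in the 3 IL-3 immature libraries, 89.8, 91.8 and 96.0 in the TSLP immature, 33.9, 42.1 and 37.4 in the TSLP mature and 32.6, 38.1 and 39.5 in the IL-3 mature libraries. The IL-3 immature libraries spread widely and were still all above the TSLP immature ones, while the 2 mature groups overlapped. Hmgcs1 was higher in immature cells by log2 2.08 ± 0.20 (adjusted p = 4.66e-07) with IL-3 and 1.29 ± 0.20 (adjusted p = 0.000154) with TSLP. Pmvk, phosphomevalonate kinase, had 19.8, 16.8 and 18.1 CPM in the 3 IL-3 immature libraries, 12.9, 15.9 and 20.7 in the TSLP immature, 12.4, 6.78 and 6.13 in the TSLP mature and 4.25, 4.71 and 4.04 in the IL-3 mature libraries. TSLP mature 1 came close to the lowest TSLP immature library, and the other mature libraries were clearly lower. Pmvk differed by 2.05 ± 0.31 (adjusted p = 6.13e-05) and 0.95 ± 0.28 (adjusted p = 0.018) on the log2 scale; the second call was lost without TSLP immature 3, TSLP mature 2 or TSLP mature 3 (adjusted p 0.0585 to 0.0627), and its size was 1.43 without TSLP mature 1. When the libraries were thinned to the smallest, it was 0.42 (adjusted p = 0.561). Mvd, the decarboxylase that makes isopentenyl diphosphate, had 20.8, 11.9 and 18.8 CPM in the 3 IL-3 immature libraries, 14.1, 13.2 and 19.3 in the TSLP immature, 12.1, 9.32 and 7.66 in the TSLP mature and 2.48, 1.81 and 0.898 in the IL-3 mature libraries. The IL-3 mature libraries were the lowest without overlap, and the TSLP groups lay closer together. Mvd gave log2 3.22 ± 0.38 (adjusted p = 4.3e-06) with IL-3 and 0.68 ± 0.28 (adjusted p = 0.0923) with TSLP, and the latter passed the test without TSLP mature 1 (log2 0.96, adjusted p = 0.0217).

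Idi1, the isomerase of isopentenyl diphosphate, had 45.9, 42.4 and 32.0 CPM in the 3 IL-3 immature libraries, 36.5, 28.8 and 30.2 in the TSLP immature, 11.6, 9.32 and 6.13 in the TSLP mature and 5.32, 3.99 and 3.14 in the IL-3 mature libraries. All immature libraries exceeded all mature ones, and the TSLP mature libraries exceeded the IL-3 mature ones. For Idi1 the difference was log2 3.23 ± 0.28 (adjusted p = 1.55e-07) with IL-3 and 1.81 ± 0.24 (adjusted p = 5.02e-05) with TSLP. Fdps, which makes farnesyl diphosphate, the branch point to sterols, dolichol and protein prenylation, had 151, 146 and 135 CPM in the 3 IL-3 immature libraries, 77.0, 93.8 and 95.3 in the TSLP immature, 32.5, 19.8 and 19.9 in the TSLP mature and 11.7, 10.2 and 9.88 in the IL-3 mature libraries. The 4 groups did not overlap for this gene. Fdps was 13.6-fold higher in IL-3 immature than in IL-3 mature cells, log2 3.76 ± 0.23 (adjusted p = 2.93e-09), and 3.68-fold higher in TSLP immature than in TSLP mature cells, log2 1.88 ± 0.20 (adjusted p = 4.76e-06). Acat2, the cytosolic thiolase, and Mvk, mevalonate kinase, had low levels, at 0.449 to 16.8 CPM over the 12 libraries, and both were higher in immature cells of both cultures. Acat2 gave log2 2.71 ± 0.36 (adjusted p = 1.43e-05) and 1.30 ± 0.30 (adjusted p = 0.00538), and Mvk 2.46 ± 0.44 (adjusted p = 0.000235) and 1.48 ± 0.36 (adjusted p = 0.0066). The TSLP call of Mvk was lost on thinning (log2 1.22, adjusted p = 0.179). Of the 50-base stretches in annotated exons, Acat2 shared 39.1% with Acat3, Fdps 26.2% with gene models such as Gm5873 and Idi1 17.7% with models such as Gm13502, so that reads of these genes could have been split or added to.

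Fdps lies on chromosome 3, 89093588 to 89101959, reverse strand, Mvd on chromosome 8, 122433601 to 122443422, reverse strand, Idi1 on chromosome 13, 8885501 to 8892451, forward strand, Sqle on chromosome 15, 59315077 to 59331192, forward strand, and Insig1 on chromosome 5, 28071363 to 28078662, forward strand (GRCm38, GENCODE M21). The counts are per gene symbol and do not tell transcripts apart.

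The steps from squalene to lanosterol began with Fdft1. Fdft1, squalene synthase, had 22.7, 29.9 and 20.4 CPM in the 3 IL-3 immature libraries, 24.9, 22.2 and 24.4 in the TSLP immature, 18.0, 5.93 and 9.80 in the TSLP mature and 8.51, 6.17 and 4.49 in the IL-3 mature libraries. The spread within TSLP mature was wide, with TSLP mature 1 the highest mature library. Fdft1 gave log2 1.91 ± 0.35 (adjusted p = 0.000301) with IL-3 and 1.07 ± 0.31 (adjusted p = 0.0184) with TSLP, where it lost the call without TSLP immature 1, TSLP mature 2 or TSLP mature 3 (adjusted p 0.05 to 0.0613) and reached 1.70 without TSLP mature 1. Sqle, squalene epoxidase, had 39.1, 41.8 and 44.8 CPM in the 3 IL-3 immature libraries, 30.5, 35.4 and 24.4 in the TSLP immature, 11.3, 10.4 and 7.97 in the TSLP mature and 6.38, 4.35 and 2.25 in the IL-3 mature libraries. The 4 groups did not overlap, with the TSLP mature libraries between the IL-3 mature and the immature ones. Sqle differed by log2 3.23 ± 0.28 (adjusted p = 1.49e-07) and 1.59 ± 0.24 (adjusted p = 0.00017). Lss, lanosterol synthase, had 31.4, 31.9 and 29.7 CPM in the 3 IL-3 immature libraries, 34.1, 29.6 and 31.5 in the TSLP immature, 19.3, 33.3 and 31.9 in the TSLP mature and 16.7, 16.3 and 24.7 in the IL-3 mature libraries. TSLP mature 2 and 3 reached the level of immature cells. Lss gave 0.70 ± 0.23 (adjusted p = 0.0211) with IL-3 and 0.18 ± 0.22 (adjusted p = 0.603) with TSLP, and the IL-3 call was lost without IL-3 mature 1 or IL-3 mature 2 (adjusted p 0.0643 to 0.0845). Cyp51, the demethylase of lanosterol, had 102, 109.5 and 116 CPM in the 3 IL-3 immature libraries, 95.8, 94.9 and 80.3 in the TSLP immature, 26.3, 23.2 and 23.3 in the TSLP mature and 24.1, 22.9 and 19.3 in the IL-3 mature libraries. Its immature libraries were all at least 80.3 CPM and its mature libraries at most 26.3. Cyp51 was higher in immature cells by log2 2.30 ± 0.17 (adjusted p = 2.57e-08) and 1.90 ± 0.17 (adjusted p = 6.08e-07).

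The next enzymes carry lanosterol on to cholesterol. Msmo1, the methylsterol oxidase, had 44.4, 43.0 and 45.2 CPM in the 3 IL-3 immature libraries, 42.5, 38.5 and 40.0 in the TSLP immature, 21.2, 27.1 and 20.8 in the TSLP mature and 13.8, 13.8 and 14.8 in the IL-3 mature libraries. The 6 immature libraries lay within a narrow band above both mature groups. Msmo1 gave log2 1.64 ± 0.18 (adjusted p = 1.91e-06) and 0.81 ± 0.17 (adjusted p = 0.00224). Nsdhl, a sterol dehydrogenase, had 35.3, 20.5 and 18.1 CPM in the 3 IL-3 immature libraries, 20.7, 23.0 and 16.3 in the TSLP immature, 12.6, 10.4 and 6.13 in the TSLP mature and 7.09, 6.17 and 6.29 in the IL-3 mature libraries. IL-3 immature 1 stood well above the other immature libraries. Nsdhl differed by 1.88 ± 0.32 (adjusted p = 0.000153) and 1.02 ± 0.29 (adjusted p = 0.0171) on the log2 scale, and the TSLP call was lost without TSLP immature 1, TSLP immature 2 or TSLP mature 3 (adjusted p 0.0526 to 0.0605) or when the libraries were thinned (0.0622). Hsd17b7, a sterol ketoreductase, had 52.2, 31.3 and 24.7 CPM in the 3 IL-3 immature libraries, 19.2, 22.2 and 25.4 in the TSLP immature, 3.49, 5.93 and 3.06 in the TSLP mature and 1.42, 4.35 and 1.80 in the IL-3 mature libraries. No mature library came above 5.93 CPM. Hsd17b7 was 14.3-fold higher in immature cells with IL-3, log2 3.78 ± 0.40 (adjusted p = 1.16e-06), and 5.35-fold higher with TSLP, log2 2.40 ± 0.36 (adjusted p = 0.000124). Sc5d, the sterol desaturase, had 33.8, 35.3 and 32.97 CPM in the 3 IL-3 immature libraries, 35.0, 31.1 and 33.6 in the TSLP immature, 18.8, 15.0 and 19.3 in the TSLP mature and 21.3, 18.5 and 15.7 in the IL-3 mature libraries. The immature libraries were nearly level in both cultures and did not overlap the mature ones. For Sc5d the difference was 0.87 ± 0.19 (adjusted p = 0.00115) and 0.91 ± 0.18 (adjusted p = 0.0016).

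Dhcr7, a late sterol reductase, ranged from 0.355 to 10.5 CPM and gave log2 3.47 ± 0.58 (adjusted p = 0.000145) and 1.65 ± 0.45 (adjusted p = 0.0136); the TSLP call was lost without TSLP immature 3 (adjusted p = 0.0718). Ebp, the sterol isomerase, ranged from 33.3 to 68.2 CPM, and its differences of 0.30 ± 0.23 (adjusted p = 0.302) and -0.18 ± 0.23 (adjusted p = 0.601) did not pass the test. Tm7sf2, a sterol reductase, ranged from 0 to 4.07 CPM and was not tested.

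The fatty acid arm began at citrate. Acly, the lyase that makes cytosolic acetyl-CoA from citrate, had 124, 98.4 and 120.0 CPM in the 3 IL-3 immature libraries, 138, 127 and 151 in the TSLP immature, 98.9, 116 and 138 in the TSLP mature and 81.9, 85.6 and 67.4 in the IL-3 mature libraries. The IL-3 mature libraries were the lowest, and the TSLP mature libraries overlapped the immature ones. Acly was higher in immature cells with IL-3, by log2 0.54 ± 0.18 (adjusted p = 0.021), a call lost without IL-3 immature 1 or IL-3 mature 3 (adjusted p 0.0518 to 0.0565), and gave 0.23 ± 0.17 (adjusted p = 0.361) with TSLP. Acaca, acetyl-CoA carboxylase, had 43.0, 44.4 and 60.0 CPM in the 3 IL-3 immature libraries, 27.6, 35.4 and 33.2 in the TSLP immature, 7.79, 16.4 and 11.3 in the TSLP mature and 8.15, 10.9 and 11.2 in the IL-3 mature libraries. All immature libraries were above all mature ones, and the 2 mature groups overlapped. Acaca differed by log2 2.29 ± 0.26 (adjusted p = 2.9e-06) and 1.43 ± 0.25 (adjusted p = 0.000568), and 30.4% of its 50-base stretches also occur in Gm5182. Fasn, fatty acid synthase, had 73.4, 69.7 and 86.7 CPM in the 3 IL-3 immature libraries, 100.3, 112 and 121 in the TSLP immature, 47.0, 64.4 and 60.4 in the TSLP mature and 11.7, 9.79 and 14.4 in the IL-3 mature libraries. The 4 groups did not overlap, and the highest libraries were those of TSLP immature cells rather than IL-3 immature cells. Fasn was 6.41-fold higher in IL-3 immature than in IL-3 mature cells, log2 2.69 ± 0.21 (adjusted p = 4.08e-08), and 1.94-fold higher in TSLP immature than in TSLP mature cells, log2 0.96 ± 0.18 (adjusted p = 0.000982). Fasn lies on chromosome 11, 120805846 to 120824547, reverse strand.

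Among the genes of desaturation and elongation, Scd2, Elovl6 and Fads2 were higher in immature cells and Elovl5 and Fads1 did not pass the test. Scd2, a stearoyl-CoA desaturase, had 206, 198 and 194 CPM in the 3 IL-3 immature libraries, 136, 117 and 113 in the TSLP immature, 41.4, 37.0 and 30.0 in the TSLP mature and 31.2, 39.9 and 33.2 in the IL-3 mature libraries. The IL-3 immature libraries were the highest, the TSLP immature libraries came next and the mature groups overlapped. Scd2 differed between stages by log2 2.52 ± 0.18 (adjusted p = 1.84e-08) and 1.75 ± 0.17 (adjusted p = 2.19e-06). Elovl6, an elongase of saturated chains, had 32.4, 29.3 and 32.97 CPM in the 3 IL-3 immature libraries, 23.9, 18.3 and 22.7 in the TSLP immature, 11.0, 11.0 and 8.58 in the TSLP mature and 8.51, 6.89 and 12.1 in the IL-3 mature libraries. Immature and mature libraries did not overlap. Elovl6 gave 1.79 ± 0.23 (adjusted p = 1.06e-05) and 1.08 ± 0.22 (adjusted p = 0.00203) on the log2 scale. Fads2, a desaturase of polyunsaturated chains, had 60.4, 52.6 and 60.7 CPM in the 3 IL-3 immature libraries, 40.7, 34.6 and 37.3 in the TSLP immature, 13.7, 9.89 and 14.7 in the TSLP mature and 15.6, 16.7 and 17.1 in the IL-3 mature libraries. All immature libraries were above all mature ones, and the TSLP mature libraries were the lowest. Fads2 was higher in immature cells by 1.81 ± 0.19 (adjusted p = 1.03e-06) and 1.56 ± 0.19 (adjusted p = 1.74e-05). Elovl5, an elongase of polyunsaturated chains, had 47.8, 52.1 and 64.0 CPM in the 3 IL-3 immature libraries, 63.5, 58.4 and 58.6 in the TSLP immature, 47.3, 70.9 and 78.7 in the TSLP mature and 48.2, 41.4 and 39.5 in the IL-3 mature libraries. Immature and mature libraries overlapped in both cultures. Elovl5 gave 0.35 ± 0.20 (adjusted p = 0.174) and -0.12 ± 0.20 (adjusted p = 0.689). Fads1, the neighbour of Fads2 and the other desaturase of polyunsaturated chains, ranged from 46.8 to 72.2 CPM and gave 0.09 ± 0.17 (adjusted p = 0.695) and 0.16 ± 0.17 (adjusted p = 0.533), with neither passing the test.

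The second question was what the cytokine changed within a stage. These comparisons share their libraries with the comparisons between stages. In mature cells 9 of 23 sterol genes and 3 of 8 fatty acid genes were higher with TSLP than with IL-3 and none was lower (24.3% of all genes passed, 12.4% higher and 11.9% lower), with medians of 0.71 and 0.20 beside 0.09 over all genes. At an unadjusted p under 0.05 and by DESeq2, 0 members were lower with TSLP. DESeq2 called 7 sterol and 3 fatty acid genes higher. Mvd differed most among the sterol genes, 5.60-fold or log2 2.42 ± 0.40 (adjusted p = 0.000875), from 9.69 ± 2.24 CPM (SD, n = 3) with TSLP to 1.73 ± 0.795 with IL-3. Fasn differed 4.79-fold, log2 2.27 ± 0.21 (adjusted p = 9.43e-06), from 57.3 ± 9.10 to 11.9 ± 2.30 CPM. Srebf1 gave log2 1.18 ± 0.22 (adjusted p = 0.00164) and Fdps 1.18 ± 0.23 (adjusted p = 0.00239). In these 4 genes the 2 mature groups did not overlap, as in 20.9% of all genes in that direction and 38.6% in either. The 4 calls were kept under each of the 20 alternative settings, library removals included.

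The other 8 calls in mature cells were lost in at least 1 setting. Sqle gave log2 1.15 ± 0.31 (adjusted p = 0.014), lost without IL-3 mature 2 or IL-3 mature 3; Insig1 1.00 ± 0.27 (adjusted p = 0.0143), lost without IL-3 mature 2 or TSLP mature 2; and Msmo1 0.71 ± 0.18 (adjusted p = 0.0121), lost without IL-3 mature 2 or TSLP mature 2 (adjusted p 0.0511 to 0.0862 over the 3 genes). With the libraries thinned to the smallest, Insig1 fell to log2 0.43 (adjusted p = 0.492) and Idi1 to 0.76 (adjusted p = 0.326). Idi1 gave 1.10 ± 0.31 (adjusted p = 0.0189) and lost the call without IL-3 mature 2, IL-3 mature 3, TSLP mature 1 or TSLP mature 2 (adjusted p 0.0536 to 0.101). Acly gave 0.59 ± 0.18 (adjusted p = 0.0259) and lost it on the removal of 7 of the 12 libraries (adjusted p 0.0506 to 0.145). Acat2, Pmvk and Elovl5 stood nearest the threshold, with 1.16 ± 0.40 (adjusted p = 0.0451), 0.96 ± 0.33 (adjusted p = 0.0458) and 0.61 ± 0.20 (adjusted p = 0.0372), and lost the call on the removal of 11, 10 and 11 of the 12 libraries, with adjusted p up to 0.281. Pmvk fell to log2 0.48 without TSLP mature 1 and Elovl5 to 0.40 (adjusted p = 0.228) when thinned, and Elovl5 was called although its libraries overlapped. Among the genes that did not pass, Hmgcs1, Cyp51, Sc5d, Scd2 and Elovl6 gave log2 values between -0.07 and 0.17. The sum of cell cycle markers was also higher in TSLP mature cells, with 12 of 17 genes called higher, and so was that of B lineage markers, with 2 of 2 tested. Monocyte or macrophage markers summed to 374 to 661 CPM in TSLP mature and 247 to 351 in IL-3 mature libraries (2 of 7 higher). Dendritic cell markers summed to 80.8 to 242 and 34.1 to 69.1 (1 of 2 tested higher), and mast cell markers, nearly all Cpa3, to 654 to 859 and 1308 to 1844 (1 of 1 tested lower). The part of these markers was not tested. Without TSLP mature 1, 7 sterol and 3 fatty acid genes were higher.

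In immature cells the cytokines differed less. Of the sterol genes 3 of 23 were lower with TSLP than with IL-3 and of the fatty acid genes 2 of 8, and none was higher (13.3% of all genes passed, 5.9% lower and 7.38% higher), with medians of -0.26 and -0.31 beside 0.04. At an unadjusted p under 0.05, 0 sterol genes and 1 fatty acid gene, Fasn, were higher, and by DESeq2 0 members were. Hmgcs1 fell from 156 ± 42.9 CPM with IL-3 to 92.5 ± 3.12 with TSLP (SD, n = 3), log2 -0.75 ± 0.19 (adjusted p = 0.0172). Fdps gave -0.70 ± 0.19 (adjusted p = 0.0229) and Stard4 -0.56 ± 0.18 (adjusted p = 0.0456). Scd2 gave -0.71 ± 0.17 (adjusted p = 0.011) and Fads2 -0.62 ± 0.17 (adjusted p = 0.0278). In each of the 5 genes the 2 groups did not overlap, as in 17.8% of all genes in that direction and 38% in either. None of the 5 calls was kept in every setting. The removal of IL-3 immature 1 or TSLP immature 3 ended that of Hmgcs1, of IL-3 immature 1, IL-3 immature 2, TSLP immature 1 or TSLP immature 3 that of Fdps, of IL-3 immature 1, IL-3 immature 3, TSLP immature 2 or TSLP immature 3 that of Fads2, of TSLP immature 3 that of Scd2, and of any of 6 libraries that of Stard4, with adjusted p between 0.0505 and 0.122. Fasn went the other way in value, with log2 0.54 ± 0.18 (adjusted p = 0.057) and no overlap between the groups (20.2% of all genes in that direction), and did not pass; it passed without TSLP mature 1 (adjusted p = 0.0229). Ribosomal RNA genes took 35.0 to 40.1% of the counts in TSLP immature and 14.7 to 25.0% in IL-3 immature libraries. The largest of them, Rn45s, took 17.55 to 20.15% and 7.43 to 12.5%. With Rn45s left out the counts were again 3 sterol and 2 fatty acid genes, but the other ribosomal RNA genes stayed in. That setting therefore removed only a part of the unequal share. Cell cycle genes summed to 1868 to 1958 CPM with TSLP and 2665 to 2706 with IL-3 (5 of 17 lower). Monocyte or macrophage markers summed to 99.4 to 129.5 and 21.4 to 48.8 (3 of 7 higher). Mast cell markers summed to 1594 to 1678 and 2749 to 3218 and T or NK cell markers to 7.79 to 12.4 and 45.2 to 50.4 (1 of 1 tested lower in both lists). Each of these sums was nearly all from 1 gene, Cpa3 in the mast cell list and Nkg7 in the T or NK list. Nkg7 averaged 9.64 CPM with TSLP and 46.8 with IL-3, while Cd3e, Cd3d, Cd3g, Ncr1 and Klrb1c each averaged at most 0.542 in both groups. The part of these markers in the result was not tested.

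**Figure D3:**
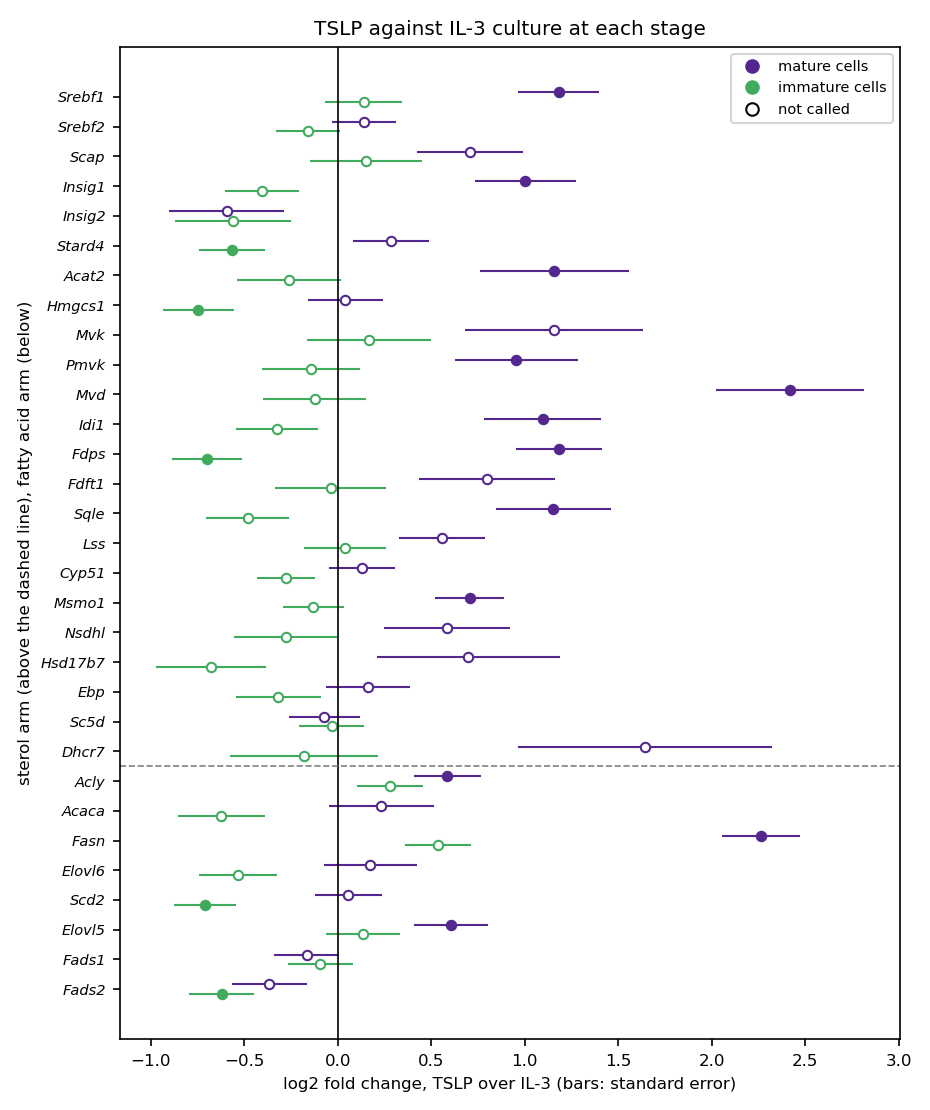
Log2 fold change of TSLP against IL-3 (horizontal axis) for each tested member (vertical axis) in mature and in immature cells, with points for the estimate, bars for ± 1 SE and open points for genes that did not pass an adjusted p of 0.05. Mvd and Fasn lie farthest to the right in mature cells, and the called genes of immature cells all lie left of 0.

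The third question was whether the difference between stages itself depended on the cytokine, tested as the interaction in the same model. For 5 sterol genes and 1 fatty acid gene the step from mature to immature was smaller with TSLP than with IL-3, and for no member was it larger (4.18% of all genes passed, 2.04% smaller and 2.14% larger). At an unadjusted p under 0.05 and by DESeq2, 0 members had a larger step with TSLP. The medians were -0.86 over the tested sterol and -0.59 over the fatty acid genes, beside 0.02. Mvd had the largest difference, -2.54 ± 0.49 (adjusted p = 0.00775) on the log2 scale, lost only when the libraries were thinned to the smallest (adjusted p = 0.0783). Fdps gave -1.88 ± 0.30 (adjusted p = 0.00203) and Fasn -1.73 ± 0.27 (adjusted p = 0.00203), and these 2 calls held in each of the 20 settings. Sqle gave -1.64 ± 0.38 (adjusted p = 0.0231), Insig1 -1.41 ± 0.34 (adjusted p = 0.0259) and Idi1 -1.42 ± 0.38 (adjusted p = 0.0473), and their calls were lost on the removal of 6, 6 and 11 of the 12 libraries (adjusted p 0.0513 to 0.143). All 3 were also lost on thinning, which gave log2 -1.84 (adjusted p = 0.0921) for Sqle, -0.91 (adjusted p = 0.365) for Insig1 and -1.05 (adjusted p = 0.419) for Idi1. In all 6 genes the TSLP mature libraries lay above the IL-3 mature ones without overlap, as in 20.9% of all genes in that direction and 38.6% in either. The interaction contains this difference between the mature groups, so the separation is no separate result. In immature cells TSLP libraries lay below the IL-3 ones for Fdps and Sqle (17.8% of all genes) and above them for Fasn (20.2%), and overlapped them for Mvd, Idi1 and Insig1. Srebf1, with -1.04 ± 0.30 (adjusted p = 0.0603), and Msmo1, with -0.84 ± 0.25 (adjusted p = 0.0669), came next and did not pass. Of the 17 cell cycle genes 10 had a smaller step with TSLP as well, and their part was not tested.

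**Figure D4:**
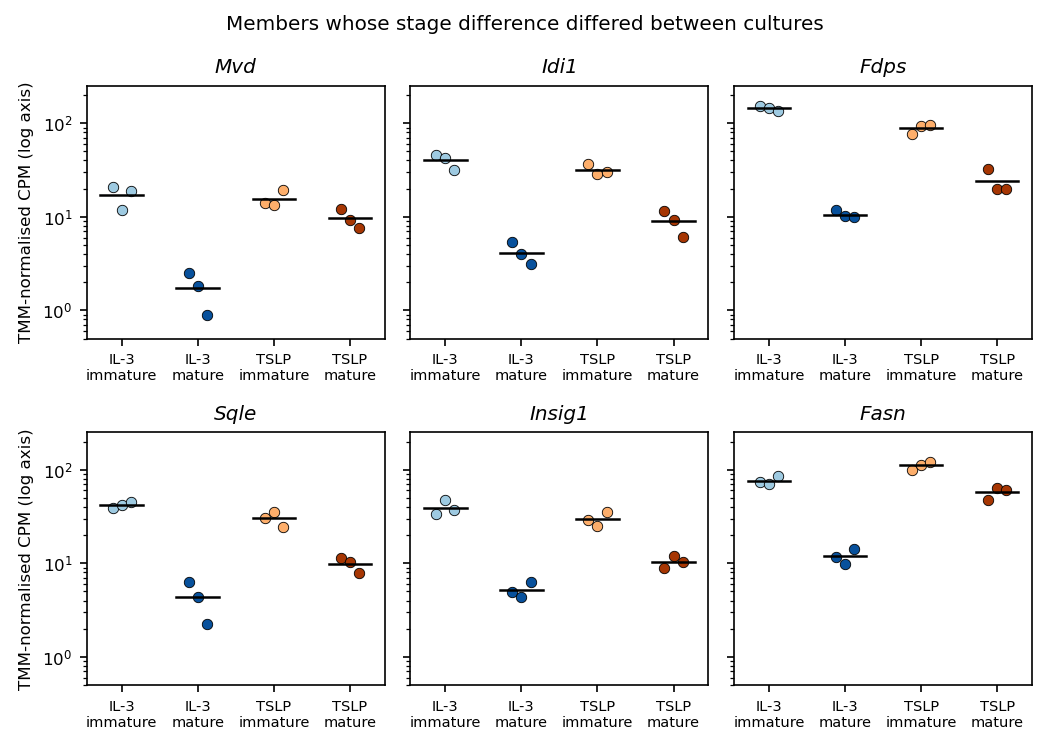
Level in CPM (vertical axis, log scale) of Mvd, Idi1, Fdps, Sqle, Insig1 and Fasn in each library of the 4 groups (horizontal axis), with points for libraries and bars for the group mean. In each panel the 3 TSLP mature points lie above the 3 IL-3 mature points, and the immature points lie above both, except that for Mvd the IL-3 immature 2 point (11.9 CPM) lies just under that of TSLP mature 1 (12.1 CPM).

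Genes around the synthesis pathway were taken from lists of related function. Their counts stand beside those over all genes, of which 46.2% passed with IL-3 (22.1% higher, 24.1% lower) and 25.2% with TSLP (12.2% higher, 12.9% lower). In the LXR and efflux list 4 of 6 tested genes were lower in immature cells with IL-3 and 5 of 6 with TSLP, and none was higher by edgeR, by DESeq2 or at an unadjusted p under 0.05. Abcg1, a sterol exporter, had 6.43 against 62.9 CPM, log2 -3.34 ± 0.25, adjusted p = 2.86e-08, in IL-3 immature against mature cells, and 6.68 against 37.8 CPM, log2 -2.50 ± 0.25, adjusted p = 1.96e-06, in the TSLP culture. Mylip, a ligase that marks lipoprotein receptors for breakdown, had 7.68 against 50.4 CPM, log2 -2.69 ± 0.22, adjusted p = 7.31e-08, with IL-3. Rxra, the partner of LXR, had 12.2 against 32.8 CPM, log2 -1.43 ± 0.24, adjusted p = 0.000431, with TSLP. In the list of uptake, transport and esterification 1 of 12 was higher and 5 lower in each culture, so that 6 of 12 passed in each. Scarb1, a lipoprotein receptor, was the higher one (19.2 against 6.58 CPM, log2 1.55 ± 0.29, adjusted p = 0.00034 with IL-3), and Soat1, which esterifies cholesterol for storage, was among the lower ones (11.9 against 30.4 CPM, log2 -1.38 ± 0.22, adjusted p = 0.000105 with IL-3 and 14.3 against 33.7 CPM, log2 -1.23 ± 0.21, adjusted p = 0.000503 with TSLP). Lrp1, an endocytic receptor, had 1.88 against 13.5 CPM, log2 -2.87 ± 0.52, adjusted p = 0.000689, with TSLP.

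Of the genes that process or degrade the SREBP machinery, 2 of 11 were higher and 2 lower in immature cells with IL-3, and 1 and 1 with TSLP, both counts below the shares of all genes. Tmem97, a sterol-regulated membrane protein, was higher in both (27.6 against 7.20 CPM, log2 1.91 ± 0.39, adjusted p = 0.000803 with IL-3, and 24.9 against 9.49 CPM, log2 1.38 ± 0.36, adjusted p = 0.0106 with TSLP), while Pgrmc1 was lower with IL-3 (74.3 against 171 CPM, log2 -1.21 ± 0.23, adjusted p = 0.000487). In the branches of mevalonate to dolichol, ubiquinone and prenyl groups 2 of 10 were higher and 1 lower in each culture, a share below that of all genes with IL-3 and near it with TSLP. Dhdds, which makes dolichol chains, had 15.6 against 5.03 CPM, log2 1.64 ± 0.33, adjusted p = 0.000642, with IL-3, and Ggps1, which makes the prenyl group geranylgeranyl, had 23.8 against 23.7 CPM, log2 0.01 ± 0.21, adjusted p = 0.969, which did not pass.

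On the fatty acid side, 4 of 12 other synthesis and elongation genes were higher in immature cells with IL-3 and none lower by edgeR, by DESeq2 or at an unadjusted p under 0.05, and 1 was higher and 1 lower with TSLP. Hsd17b12, the ketoreductase of chain elongation, was higher in both cultures (68.5 against 17.9 CPM, log2 1.93 ± 0.19, adjusted p = 5.68e-07 with IL-3, and 48.0 against 17.5 CPM, log2 1.45 ± 0.19, adjusted p = 3.02e-05 with TSLP). Among activation and glycerolipid genes 3 of 13 were higher and 5 lower with IL-3, and 1 and 3 with TSLP. Acsl3, an acyl-CoA synthetase, had 11.4 against 1.94 CPM, log2 2.55 ± 0.46, adjusted p = 0.00026, with IL-3, and Plin2, a coat protein of lipid droplets, went the other way with 22.3 against 59.1 CPM, log2 -1.43 ± 0.20, adjusted p = 2.91e-05, and with 14.2 against 52.2 CPM, log2 -1.88 ± 0.21, adjusted p = 6.87e-06 in the TSLP culture. In fatty acid oxidation 6 of 14 were higher and 1 lower with IL-3, and 2 and 1 with TSLP, in both directions together close to the shares of all genes. Hadh and Acaa2, of the mitochondrial oxidation cycle, led the higher ones with 12.2 against 2.04 CPM, log2 2.58 ± 0.39, adjusted p = 5.59e-05, and 106 against 38.3 CPM, log2 1.47 ± 0.27, adjusted p = 0.000291; Cpt1a, which admits fatty acids to mitochondria, was the lower one (45.9 against 71.9 CPM, log2 -0.64 ± 0.20, adjusted p = 0.0172), a call lost in 5 of the 20 settings.

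**Figure D5:**
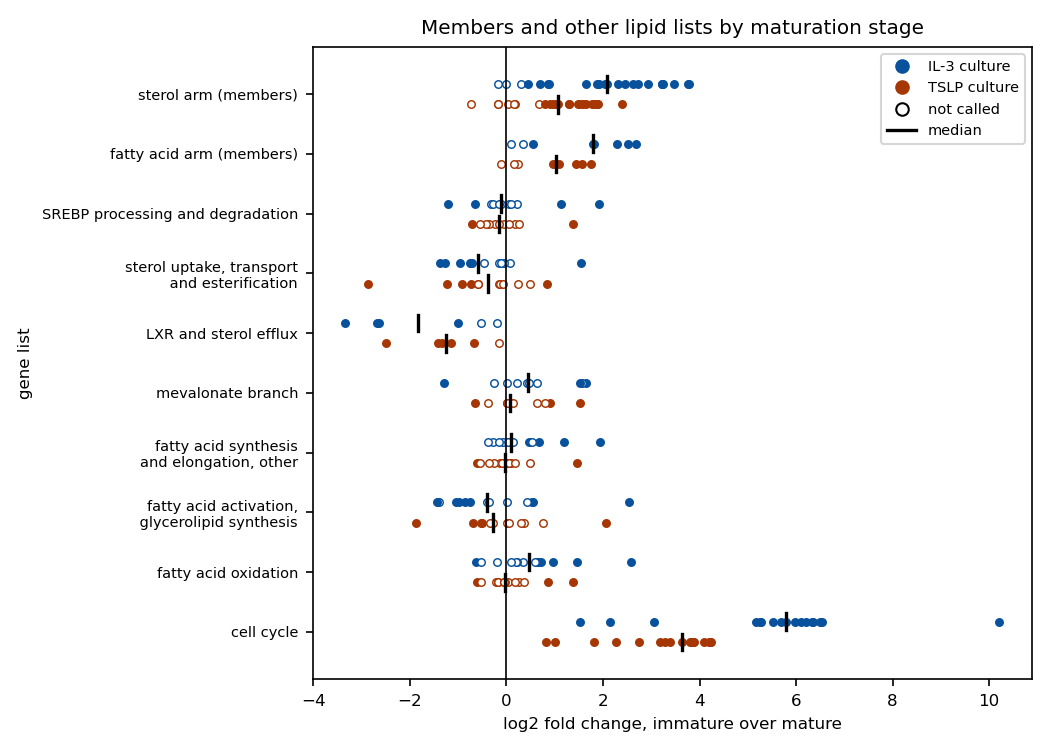
Log2 fold change of immature against mature cells (horizontal axis) for the tested genes of each lipid list and of the cell cycle list (vertical axis), for the IL-3 and the TSLP culture, with a point for each gene, open where it did not pass, and a line for the list's median. The sterol and fatty acid arms and the cell cycle genes lie mostly right of 0, the efflux list lies left of it, and the remaining lists spread around it; the outermost cell cycle point is Bub1, which had 0 counts in IL-3 mature cells, so that its place depends on the prior count.

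The genes whose pattern was most like the sterol arm were found among the 7515 non-member genes that averaged 10 CPM or more, by Pearson's r over the 12 libraries with the mean standardised level of the tested sterol genes. The 10 likest were Alox12e (r = 0.996), Lig1, Uhrf1, Asf1b, Knstrn, Bub1, Syce2, Pa2g4, Gm38481 and Pbk (r = 0.987). Lig1, Uhrf1, Asf1b, Knstrn, Bub1 and Pbk are genes of DNA replication, chromatin or mitosis. Alox12e, a lipoxygenase gene, had 52.4 ± 7.80 CPM in IL-3 immature, 42.6 ± 6.47 in TSLP immature, 12.2 ± 2.59 in TSLP mature and 4.91 ± 1.16 in IL-3 mature cells (SD, n = 3). With a smaller prior count of 0.5 on the log scale 7 of the 10 genes stayed among the likest. The points share the 4 groups and their libraries, so these values describe a common order of the groups and carry no p.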

How the data were processed

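RNA of 12 sorted BMBA samples was sequenced on an Ion Proton after poly(A) capture on beads and whole-transcriptome amplification. The authors trimmed reads with Cutadapt and aligned them with Bowtie2 to mouse reference RNA. The methods name GRCm38, the submitters' processing notes GRCm39 and mm10. The deposited table holds read counts per gene symbol, not normalized, in 12 columns that matched the sample titles. Its 1 unnamed row equals the sum of the other rows (50% of each column) and was left out. The strand setting of the counting is not given in the sources used here, so reads of genes that overlap on opposite strands (for Fdft1 17.2% of 50-base stretches lie over Ctsb, for Hmgcs1 11.6% over Gm48342) cannot be told apart.

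Counts were scaled by TMM and fitted over all 12 libraries with the edgeR (4.0.16) quasi-likelihood test in R 4.3.3, after filterByExpr (minimum count 10), and p-values were Benjamini-Hochberg adjusted over the 10861 genes tested, with 0.05 as threshold. The study's own test was not installed. The 5 comparisons were immature against mature in each culture, TSLP against IL-3 at each stage, and their interaction. Alternatives were DESeq2 (1.42.0), other size factors and filters, a replicate block, thinning to the smallest library, Rn45s left out, TMM on genes called in no pairwise comparison (added after seeing the data), and each library left out in turn. The members and lists were chosen with earlier results of these data known. Library values are given for members called in at least 1 comparison with a mean of 10 CPM or more; from each other list at most 2 called genes per direction with the largest change were eligible to be named, in each comparison, and Ggps1 was added. The fit was tested on simulated data. Promoter windows are from RefSeq, gene positions and shared 50-base stretches from GENCODE M21. Library totals (1720065 to 3685285 counts) limit the precision of genes under about 10 CPM.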

Additional observations from a re-analysis of the deposited data

Results flagged for a closer look

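Of the members, 6 were singled out because the test of the interaction found that the difference between immature and mature cells was not the same in both cultures. As the log2 difference of TSLP minus IL-3, the values were -2.54 ± 0.49 (SE, adjusted p = 0.00775) for Mvd, -1.42 ± 0.38 (adjusted p = 0.0473) for Idi1, -1.88 ± 0.30 (adjusted p = 0.00203) for Fdps, -1.64 ± 0.38 (adjusted p = 0.0231) for Sqle, -1.41 ± 0.34 (adjusted p = 0.0259) for Insig1 and -1.73 ± 0.27 (adjusted p = 0.00203) for Fasn, each by the edgeR quasi-likelihood test over 3 libraries per group. Idi1 was lost on the removal of 11 of the 12 libraries, and Sqle and Insig1 on the removal of 6 each, and thinning to the smallest library ended the calls of Idi1, Sqle, Insig1 and Mvd. The criterion for a single outlying value was not applied, since it needs groups of 4 or more.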

How the results depend on the processing

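No called difference of a member, and none of a gene named from another list, changed direction under any alternative. The uncalled differences of Fasn in immature cells and of Mvd in the TSLP culture also kept theirs. Other uncalled differences, that of Ggps1 included, were not followed over the alternatives. The balance of calls over all genes moved more: 47.9% of the called genes were higher in the IL-3 culture (47.5 to 54.7% over the alternatives), 48.6% in the TSLP culture (48.7 to 60.6%), 51.1% with TSLP in mature cells (38.2 to 51.7%), 55.6% with TSLP in immature cells (44.8 to 61.7%) and 51.1% for the interaction (45.8 to 67.8%), and the median over all genes moved by up to 0.113 on the log2 scale, past 0 in both cultures with Rn45s left out (by 0.08 and 0.09). In the TSLP against IL-3 comparison of mature cells, thinning to the smallest library left 5 sterol genes, 1 fatty acid gene and 1664 genes in all. In immature cells the fatty acid count of 2 became 1 without a filter on low counts and 1 when thinned. For the interaction, thinning left 1 sterol gene and 236 genes in all, and DESeq2 called 7 sterol and 2 fatty acid genes. Leaving out 1 library at a time gave, in the IL-3 culture, 18 to 21 sterol, 5 to 7 fatty acid and 4193 to 5676 genes in all; in the TSLP culture 13 to 18, 5 and 1773 to 3456; in mature cells 3 to 10, 1 to 3 and 1657 to 2968; in immature cells 0 to 3, 0 to 5 and 588 to 2243; and for the interaction 2 to 6, 1 and 240 to 723. Without TSLP mature 1 the interaction held for 6 sterol genes and 1 fatty acid gene. Of the called members, 23 of 26, 16 of 21, 4 of 12, 0 of 5 and 2 of 6 were called in every setting, in the same order of comparisons. The causes were not tested, save that leaving out a library and thinning leave fewer samples or counts.

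The data held a hint, not given by the design, that libraries with the same replicate number belong together. Of 18 pairs of libraries with the same number, 7 had deviations correlated above 0.1 (range -0.08 to 0.39). The median r was 0.08 in these pairs and -0.05 in 36 pairs with another number, and 8 of 12 libraries correlated best with their own number. The main test had no term for the replicate number. With a replicate block the counts were 20 sterol, 6 fatty acid and 5248 genes in all in the IL-3 culture, 17, 5 and 3067 in the TSLP culture, 8, 3 and 2850 in mature cells, 3, 4 and 1893 in immature cells, and 5, 1 and 557 for the interaction. The block also brought Fasn in immature cells past the threshold (log2 0.54, adjusted p = 0.0356).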

Other observations

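Outside the 2 synthesis arms each lipid list held at most 4 genes called between the cytokines at either stage, in comparisons that share libraries with those between stages. In mature cells 24.3% of all genes passed. There 3 of 11 genes of SREBP processing (27.3%) and 2 of 6 of LXR and efflux (33.3%) passed. Below the share of all genes were 1 of 12 of uptake, 1 of 10 of the mevalonate branches, 1 of 12 of other fatty acid synthesis and 1 of 13 of activation. In immature cells, where 13.3% of all genes passed, 5 lipid lists (SREBP processing, uptake, mevalonate branches, other fatty acid synthesis and oxidation) held no called gene by edgeR, with 0 to 3 genes each at an unadjusted p under 0.05 and 1 gene in all by DESeq2. Of fatty acid oxidation 4 of 14 genes (28.6%) were higher in mature cells with TSLP than with IL-3 by edgeR and 2 by DESeq2. None was lower by edgeR, by DESeq2 or at an unadjusted p under 0.05. Over all genes 24.3% passed in either direction and 12.4% were higher, so the list lay near the first share. Eci1, which handles unsaturated chains, had 18.1 against 5.35 CPM, log2 1.77 ± 0.31, adjusted p = 0.00119, and Hadhb, a subunit of the mitochondrial trifunctional protein, 44.1 against 24.2 CPM, log2 0.87 ± 0.18, adjusted p = 0.00318. Acsl1, an acyl-CoA synthetase, was higher as well (43.9 against 22.0 CPM, log2 0.99 ± 0.19, adjusted p = 0.00214). Npc2, which carries cholesterol out of the lysosome, was lower in TSLP mature than in IL-3 mature cells (592 against 1505 CPM, log2 -1.34 ± 0.29, adjusted p = 0.00438), and so was Pgrmc1 (84.5 against 171 CPM, log2 -1.02 ± 0.23, adjusted p = 0.0057). In immature cells 3 of 13 genes of activation and glycerolipid synthesis were higher with TSLP, among them Agpat2, an acyltransferase of phosphatidic acid synthesis (67.1 against 37.1 CPM, log2 0.86 ± 0.22, adjusted p = 0.019), a call lost in 3 of the 20 settings. Mylip had a smaller stage difference with TSLP than with IL-3 by log2 1.35 ± 0.30 (adjusted p = 0.0159), a positive value because the gene is lower in immature cells, and this was lost in 2 of the 20 settings.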
